A study of Mus musculus with 3 samples.

Results

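The enzymes and carriers that make serine, folate-bound one-carbon units, purines, pyrimidines and deoxynucleotides were described in mouse regulatory T cells (Treg cells), the Foxp3-dependent CD4 T cells that restrain immune responses. They comprise 36 genes taken by name from these pathways by a rule that used no measured value, although earlier results of these data were known when it was written, and all 36 were found among 50600 annotated genes. RNA of primary C57BL/6NJ Treg cells was sequenced in 3 libraries, biological replicates 2, 3 and 4, which form 1 group with no second condition. The age is given as unknown, no genotype or drug is stated, and the file headers add that the cells had been activated for 16 hours. All libraries carry the same donor identifier, so the labels do not show separate animals, and SDs and p-values reflect only how far these libraries differ, which may be in part technical.

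Serine is made from a glycolytic intermediate and passes a carbon unit to folate, in mitochondria and in the cytosol. The mitochondrial branch releases formate, which the cytosol turns into the folate forms used to build purine rings, thymidylate and methionine. Purines and pyrimidines are made from small precursors or salvaged from free bases and nucleosides, and ribonucleotide reductase turns part of them into DNA precursors. T cells are known to induce this network when they are activated and begin to divide, the mitochondrial folate branch in particular.

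Replicates 2, 3 and 4 held 41222058, 47665060 and 99097524 fragments assigned to genes. All 6 T cell markers lay at 10 TPM (fragments over exon length, scaled to a sum of 1000000 in each library) or more in every library. All 6 Treg markers reached 1 TPM, the lowest being Ikzf2 at 3.22 ± 0.655 TPM (SD, n = 3). Of 26 markers of other cell types, 23 stayed under 1 TPM in every library and 8 had no fragment, and their summed level was 10.6, 10.6 and 9.96 TPM, of which Pecam1, the highest of them, made 4.499, 4.43 and 3.69 TPM in replicates 2, 3 and 4. Cd8b1 stood at 26.9 ± 2.60 TPM beside Cd8a at 0.416 ± 0.0858. Despite the shared donor identifier, Xist, the RNA of the inactive female X chromosome, was at 126, 0.331 and 36.1 TPM in replicates 2, 3 and 4, while the Y-linked Ddx3y was at 0.126, 39.3 and 28.4 TPM. By these genes replicate 2 was female in pattern and replicate 3 male, and replicate 4 held both. The source thus differed between libraries, and each SD over them includes this difference.

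Every member was detected. All 36 reached 1 TPM in every library, against 45.6% of 21764 protein-coding genes, and all 36 reached 10 TPM, against 34.8% of those genes. A level of 100 TPM or more in every library was reached by 27 members (75%), against 8.80% of protein-coding genes. The median member stood at 229 TPM, against 0.355 TPM over all protein-coding genes and 47.3 TPM over the 7743 with a mean of 10 TPM or more. The 36 genes took 1.01%, 1.04% and 1.04% of all fragments in replicates 2, 3 and 4 (95% Wilson intervals 1.0082% to 1.0143%, 1.0409% to 1.0467% and 1.0349% to 1.0389%, counting error only). In bulk RNA, fewer cells with a transcript and less of it per cell cannot be told apart. The levels spanned a wide range, with Shmt2 at the top and, on annotated exon length, Tk1 at the bottom. Over principal transcripts, taking only their bases within the annotated exons counted, Shmt2 was also the highest, but Tyms was the lowest. In the order of mean levels on annotated exon length, 14 of 35 neighbouring pairs had ranges over the libraries that did not overlap, and 21 overlapped. Shmt2 stood apart from all others, the next 7 (Phgdh, Gart, Dctpp1, Paics, Impdh2, Cad and Prps1) each overlapped their neighbour, and a gap separated Prps1 from Aprt. At the lower end Mtr, Psph, Dhodh, Tyms and Tk1 followed each other without overlap. Over principal transcripts this order changed at both ends. Aprt was then above Prps1, at 474 ± 32.4 against 302 ± 22.8 TPM (SD, n = 3), and Mtr was below Psph, Dhodh and Tk1.

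**Figure D1:**
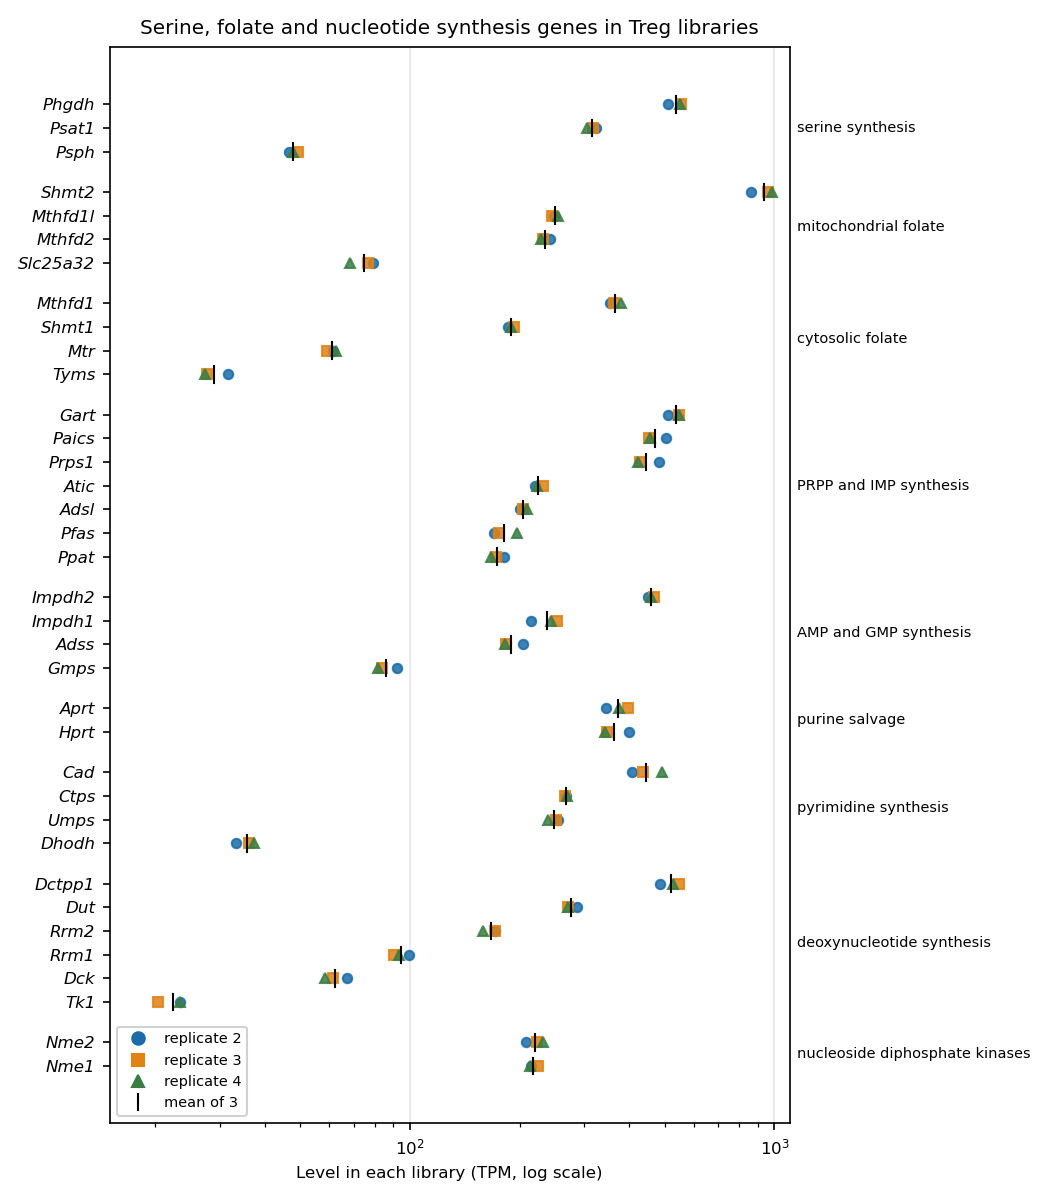
Level of each of the 36 genes in TPM on annotated exon length (log axis), grouped by pathway; blue circles, orange squares and green triangles are replicates 2, 3 and 4, and the black tick is their mean. Shmt2 lies farthest right with a mean of 934 TPM and Tk1 farthest left with 22.4 TPM, and the 3 symbols of each gene lie close together beside the differences between genes.

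The serine branch was strong at its entry and weaker at its exit. Phgdh, the dehydrogenase that diverts 3-phosphoglycerate from glycolysis (ENSMUSG00000053398.11, chromosome 3, 98313170 to 98339990, minus strand, mm10), had 509.6, 553 and 551 TPM in replicates 2, 3 and 4. Psat1, the aminotransferase of the next step, had 323, 318 and 306 TPM. Psph, the phosphatase that releases serine, had 46.6, 49.2 and 47.7 TPM, and no library brought any of these genes into the range of another. The mean levels were 538 ± 24.5, 316 ± 9.02 and 47.8 ± 1.34 TPM (SD, n = 3). Much of the Phgdh transcript recurs in other annotated transcripts: 63.1% of its windows of 50 bases occurred in those of 23 genes at other loci. Fragments that align to several places are left out under the counter's defaults, so its level is uncertain. The pseudogene that shared most of these windows, Gm7901, had 1353 fragments in all, 1.80% of the number counted for Phgdh.

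Shmt2, the mitochondrial serine hydroxymethyltransferase that splits serine into glycine and a one-carbon unit (ENSMUSG00000025403.5, chromosome 10, 127517123 to 127522444, minus strand), was the highest member. It had 861, 958 and 984 TPM in replicates 2, 3 and 4, a mean of 934 ± 64.8 TPM (SD, n = 3), and lay at the 99.4th percentile of protein-coding genes. Mthfd1l, the synthetase that frees formate in mitochondria, had 248, 246 and 255 TPM. Mthfd2, the mitochondrial dehydrogenase and cyclohydrolase between them, had 242, 232 and 229 TPM. Both lay far below Shmt2, and the ranges of Mthfd1l and Mthfd2 did not overlap. Over principal transcripts, described with the other length effects, Mthfd2 was the higher, at 263 ± 8.01 TPM, and Mthfd1l was at 201 ± 4.05 TPM. Slc25a32, the inner-membrane folate carrier, was lower at 79.1, 76.8 and 68.5 TPM, with replicate 4 the lowest.

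In the cytosol, Mthfd1, which carries the dehydrogenase, cyclohydrolase and synthetase activities in the same protein, had 354, 362 and 379 TPM in replicates 2, 3 and 4. Shmt1, the cytosolic counterpart of Shmt2, averaged 189.6 ± 3.59 TPM (SD, n = 3). Mtr, the methionine synthase, averaged 61.1 ± 1.92 TPM, and its chi-square test between libraries, described with the other library differences, missed the threshold. Tyms, which uses a folate carbon to make thymidylate (ENSMUSG00000025747.12, chromosome 5, 30058202 to 30073617, minus strand), had 31.7, 27.7 and 27.3 TPM, with replicate 2 above the others, which lay close together. Of its 50-base windows 11.0% occurred in transcripts of other loci, and the processed pseudogene Tyms-ps had no fragment.

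Between the compartments, the mitochondrial form of serine hydroxymethyltransferase was the higher and the mitochondrial formyltetrahydrofolate synthetase the lower of its pair. The log2 ratio of TPM + 1, Shmt2 over Shmt1, was 2.20, 2.30 and 2.37 in replicates 2, 3 and 4, a 4.925-fold difference of the mean TPM. Mthfd1l over Mthfd1 gave -0.52, -0.56 and -0.57, so that the mitochondrial gene was lower in every library. Mthfd2 over Mthfd2l, its mitochondrial paralog, gave 6.499, 6.58 and 6.60, with Mthfd2l at 1.499 ± 0.168 TPM. The means were 2.29 ± 0.085, -0.55 ± 0.029 and 6.56 ± 0.053 (SD, n = 3). The exact sign-flip permutation test (two-sided) cannot go below p = 0.25 with 3 libraries, and each of the 11 pairs with a shared sign in all libraries gave that value; adjusted over the 13 pairs compared it was 0.295. The coding sequences of Shmt2 and Shmt1 were 61.1% identical and those of Mthfd2 and Mthfd2l 65.0%, with no 50-base window in common.

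Around the folate cycle, a list of 15 genes for folate uptake and cofactors held 10 at 1 TPM or more in every library. The mitochondrial serine carrier gene Sfxn1 led it with 288 ± 5.55 TPM (SD, n = 3), followed by the reduced folate carrier gene Slc19a1 with 196 ± 7.88. The folate receptor genes Folr1 and Folr2 had no fragment in any library, where 3 fragments would have made at most 0.107 and 0.159 TPM. Of 13 genes for glycine cleavage and the methyl cycle, 7 reached 1 TPM in every library. Mat2a, which makes the methyl donor S-adenosylmethionine, averaged 502 ± 46.5 TPM and Gcsh, the carrier protein of glycine cleavage, 207 ± 13.8. The decarboxylase of that complex, Gldc, had 2 fragments in all libraries together, and the betaine-dependent methyltransferase gene Bhmt had 0, where 3 fragments would have made at most 0.0655 and 0.0444 TPM.

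All 7 genes from ribose 5-phosphate to IMP, the first complete purine nucleotide, exceeded 100 TPM in every library. On annotated exon length the 3 highest were Gart, Paics and Prps1; over principal transcripts Atic had the highest mean. Gart, a trifunctional enzyme of the pathway, had 511, 548 and 547 TPM in replicates 2, 3 and 4. Paics, a bifunctional enzyme of later steps (ENSMUSG00000029247.17, chromosome 5, 76951307 to 76967509, plus strand), had 504, 454 and 455 TPM, and Prps1, which makes the activated ribose PRPP (ENSMUSG00000031432.3, chromosome X, 140456613 to 140476140, plus strand), had 482, 427 and 422 TPM. In both Paics and Prps1 the highest library was replicate 2, whereas Gart was lowest there. The other 4 lay closer together. Atic, which closes the ring to IMP, averaged 225 ± 5.61 TPM, Adsl, the adenylosuccinate lyase, 205 ± 4.49, and Pfas, the formylglycinamidine ribonucleotide synthase, 181 ± 13.8 (SD, n = 3). Ppat, the committed step of the pathway (ENSMUSG00000029246.14, chromosome 5, 76913249 to 76951578, minus strand), had the lowest mean of the group, with 181, 173 and 167 TPM, a range that overlapped that of Pfas.

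Prps1 exceeded its X-linked paralog Prps2, which stood at 118 ± 9.14 TPM, with log2 ratios of 1.90, 1.87 and 1.93. Their coding sequences are 80.0% identical, with a longest identical run of 20 bases. Prps1 shares 10.1% of its 50-base windows with another gene, Prps1l3 on chromosome 12, annotated as protein-coding. Prps1l3 had 155 ± 11.6 TPM (SD, n = 3) and 30.2% as many fragments as Prps1. A fragment with both ends in shared windows could match both genes. How many fragments did so is not known, as the read length is not given.

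Paics and Ppat, whose products act in the same pathway, point away from each other on chromosome 5, and their annotated 5′ ends overlap by 272 bases on opposite strands. The counts used strand, so the genes were told apart. Paics was the higher in every library, with log2 ratios over Ppat of 1.47, 1.39 and 1.44 and a 2.72-fold difference of the mean TPM. Their promoter windows, from 250 bases before to 50 bases after each RefSeq start (GRCm38.p6, 5′ to 3′ on the gene's own strand), are printed because each lies within the annotated span of the other gene. Capitals mark the E-box hexamer CACGTG in the window of Paics, chr5:76951052-76951351 on the plus strand, and both copies of the E2F-type octamer TTTCCCGC, read here from the opposite strand, in that of Ppat, chr5:76951529-76951828 on the minus strand.
Paics: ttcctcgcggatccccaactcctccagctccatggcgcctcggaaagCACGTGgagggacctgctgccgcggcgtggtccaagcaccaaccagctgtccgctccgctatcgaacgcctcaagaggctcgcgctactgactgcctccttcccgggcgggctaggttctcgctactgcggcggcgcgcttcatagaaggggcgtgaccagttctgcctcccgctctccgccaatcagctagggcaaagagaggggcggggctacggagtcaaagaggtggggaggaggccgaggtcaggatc
Ppat: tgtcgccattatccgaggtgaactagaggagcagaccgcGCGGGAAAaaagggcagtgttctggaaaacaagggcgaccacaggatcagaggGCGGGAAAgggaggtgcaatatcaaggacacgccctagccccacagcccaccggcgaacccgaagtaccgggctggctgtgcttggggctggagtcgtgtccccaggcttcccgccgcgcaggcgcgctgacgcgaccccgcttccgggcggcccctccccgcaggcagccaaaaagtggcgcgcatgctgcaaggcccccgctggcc

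Among the 33 members with a RefSeq promoter of 300 bases, searched on both strands, CACGTG was present in 5 (15.2%), against 8.07% of 16468 protein-coding promoters. These were Tyms, Paics, Atic, Impdh2 and Nme1. The E2F-type octamers TTTCGCGC, TTTGGCGC and TTTCCCGC were found in 1 member (3.03%, Ppat), against 2.51% of promoters. The ATF4-type motif TGATGNAA was likewise found in 1 member, Prps1, against 3.48% of promoters, and CCAAT in 15 (45.5%), against 38.4%. Matches of different motifs overlapped in 0 members. These matches describe letters in the windows and were not tested as sites.

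From IMP, the branch to GMP was led by Impdh2. The IMP dehydrogenases catalyse the rate-limiting step to GMP, and Impdh2 averaged 458 ± 7.67 TPM (SD, n = 3), against 237 ± 19.9 for Impdh1. Library by library, Impdh1 had 214, 252 and 244 TPM, lowest in replicate 2, and the log2 ratios of Impdh2 over Impdh1 were 1.07, 0.88 and 0.91. Of the 50-base windows of Impdh2, 73.9% are also in the processed pseudogene Impdh2-ps, so its count may be low; the pseudogene had 18.2 ± 0.653 TPM and 2.01% of the fragments of Impdh2. Gmps, the GMP synthetase, stood lower at 91.9, 83.7 and 81.5 TPM. Towards AMP, Adss, the adenylosuccinate synthase outside muscle, averaged 189.8 ± 12.8 TPM, against 2.15 ± 0.464 TPM for the muscle form Adssl1. Their log2 ratios were 6.29, 5.71 and 5.79, the widest spread between libraries of the 13 pairs.

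Both salvage enzymes were abundant and, on annotated exon length, their order changed between libraries. Hprt, which salvages hypoxanthine and guanine (ENSMUSG00000025630.8, chromosome X, 52988137 to 53021659, plus strand), had 399, 347 and 344 TPM in replicates 2, 3 and 4, and Aprt, which salvages adenine, had 344, 395 and 374 TPM. The log2 ratios of Hprt over Aprt were 0.21, -0.19 and -0.12, with a mean of -0.034 ± 0.22 (exact sign-flip permutation p = 1.0). Replicate 2 was the highest of 3 for Hprt and the lowest for Aprt. Over principal transcripts Aprt was the higher in every library, at 440, 504 and 478 TPM against 268, 232 and 231 TPM for Hprt. In a further list of 21 purine genes, 16 reached 1 TPM in every library. The AMP deaminase gene Ampd2 averaged 148 ± 9.50 TPM. The GMP reductase gene Gmpr had 7 fragments in all and the guanine deaminase gene Gda 0, where 3 fragments would have made at most 0.0401 TPM.

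Pyrimidine synthesis genes exceeded 200 TPM on annotated exon length in every library except at the mitochondrial step. Cad, the protein that carries the opening activities of the pathway, had 408, 436 and 492 TPM in replicates 2, 3 and 4, with no overlap with Dhodh, Umps or Ctps. Dhodh, the dehydrogenase of the inner mitochondrial membrane, had 33.3, 36.2 and 37.3 TPM. Umps, which forms UMP, averaged 248 ± 8.54 TPM, and Ctps, which aminates UTP to CTP, 268 ± 1.38 (SD, n = 3). Ctps had the smallest coefficient of variation of the 36 genes, 0.517%, and Cad the largest, 9.58%. Ctps exceeded its X-linked paralog Ctps2, at 18.2 ± 2.33 TPM, with log2 ratios of 3.65, 3.99 and 3.80. Of 14 further pyrimidine genes 8 reached 1 TPM in every library and 5 had no fragment, among them the breakdown enzymes Dpys and Upb1. The salvage kinase gene Uck2 averaged 252 ± 4.69 TPM and the thymidylate kinase gene Dtymk 124 ± 3.33.

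The genes of deoxynucleotide supply spanned a wide range of levels. Dctpp1, which clears modified dCTP from the pool, had 485, 545 and 528 TPM in replicates 2, 3 and 4. Dut, which removes dUTP and yields the substrate of thymidylate synthase, averaged 277 ± 8.62 TPM (SD, n = 3). Rrm1, the large catalytic subunit of ribonucleotide reductase, had 99.1, 90.5 and 93.1 TPM, and Rrm2, the small subunit, had 171, 171 and 158 TPM. Their ranges did not overlap. Dck, the deoxycytidine kinase of salvage, had 67.2, 61.6 and 58.4 TPM. Tk1, the cytosolic thymidine kinase of dividing cells (ENSMUSG00000025574.13, chromosome 11, 117815526 to 117826092, minus strand), was the lowest member on annotated exon length at 23.4, 20.4 and 23.3 TPM, but not over principal transcripts. The lowest count behind any member value was its 1483 fragments in replicate 2, a counting error of 2.60%.

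Within this set, Rrm1 over Rrm2 gave log2 ratios of -0.78, -0.91 and -0.76 on annotated exon length, which turned to a mean of 0.30 ± 0.084 (SD, n = 3) over principal transcripts, described with the other length effects. Rrm2 exceeded Rrm2b, the p53-inducible small subunit that stood at 7.76 ± 0.991 TPM, by log2 ratios of 4.13, 4.31 and 4.35. Tk1 over Tk2, the mitochondrial thymidine kinase at 16.1 ± 1.13 TPM, gave 0.41, 0.36 and 0.58. Every library had 9 of 10 further deoxynucleotide genes at 1 TPM or more. These were led by the 5′-nucleotidase gene Nt5c at 242 ± 6.64 TPM and the mitochondrial kinase gene Nme4 at 46.3 ± 2.29. The lowest was Nme3 at 0.386 ± 0.395 TPM; most of its exon bases are also annotated to a neighbour on the same strand, so that its fragments may be left out. As context, 14 S phase genes had a median of 391 TPM, from Ccne2 at 16.6 to Mcm3 at 841, and 12 genes of mitosis a median of 8.21 TPM, from Cenpf at 1.37 to Top2a at 71.2. Relative to the mean of the libraries, replicate 2 deviated by a median log2 CPM of 0.038 over the 6 deoxynucleotide members, -0.006 over the S phase genes and 0.023 over those of mitosis.

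Of 6 nucleoside transporter genes 4 reached 1 TPM in every library. The equilibrative carrier gene Slc29a1 averaged 426 ± 16.8 TPM and Slc29a3 50.4 ± 3.04 (SD, n = 3). Among the concentrative carriers Slc28a2, outside the naming rule and named after its values were seen, averaged 17.3 ± 1.96 TPM. The other two, Slc28a1 and Slc28a3, had 1 fragment and 0 fragments in all libraries together, where 3 fragments would have made at most 0.0833 and 0.0312 TPM.

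The nucleoside diphosphate kinases Nme1 and Nme2, which make triphosphates from diphosphates, are neighbours on the minus strand of chromosome 11. Nme1 (ENSMUSG00000037601.11, chromosome 11, 93956979 to 93968521, minus strand) had 215, 224 and 213 TPM in replicates 2, 3 and 4, and Nme2 (ENSMUSG00000020857.11, chromosome 11, 93949814 to 93956259, minus strand) had 208, 223 and 231 TPM. On annotated exon length their log2 ratios were 0.049, 0.005 and -0.12, so that the order of the pair changed between libraries there (exact sign-flip permutation p = 1.0). Their coding sequences have 456 bases each and are 80.3% identical, with a longest identical run of 29 bases. The first 90 coding bases of the GENCODE M21 principal transcripts, 5′ to 3′, are printed to show how nearly the genes read alike; capitals mark the 10 bases that differ.
Nme1: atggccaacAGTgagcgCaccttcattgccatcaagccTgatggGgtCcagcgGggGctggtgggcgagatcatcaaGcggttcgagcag
Nme2: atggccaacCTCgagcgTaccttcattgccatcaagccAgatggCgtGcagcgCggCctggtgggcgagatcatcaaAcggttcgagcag

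No window of 50 bases is shared by these coding sequences. Of the windows of the whole Nme2 transcript, 25.9% occurred in transcripts of 3 genes at other loci. Fragments with several alignments are left out by default, so the Nme2 count may be low. The processed pseudogene Gm7730, which shared most of these windows, had 313 fragments in all, 2.14% of the number counted for Nme2. The annotation adds an overlap. A read-through gene, Gm20390, covers 418 exon bases of Nme1 (12.5%) and 573 of Nme2 (48.9%) on the same strand. Fragments that overlap several genes are left out by the counter's defaults, and Gm20390 itself had 0, 7 and 1 fragments. Over the bases not shared with another gene, Nme1 stood at 245 ± 6.77 TPM and Nme2 at 427 ± 23.2 TPM (SD, n = 3). The log2 ratio of Nme1 over Nme2 was then -0.80 ± 0.086 (SD, n = 3), with Nme2 the higher. With fragments over shared bases left out, annotated exon length sets the level of Nme2 too low, and more so than that of Nme1. Principal transcript length gave -0.16 ± 0.086, also with Nme2 the higher. Of the 36 members, 33 shared no exon base with another gene of their strand, and Pfas shared 39 bases with Mir3062.

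**Figure D2:**
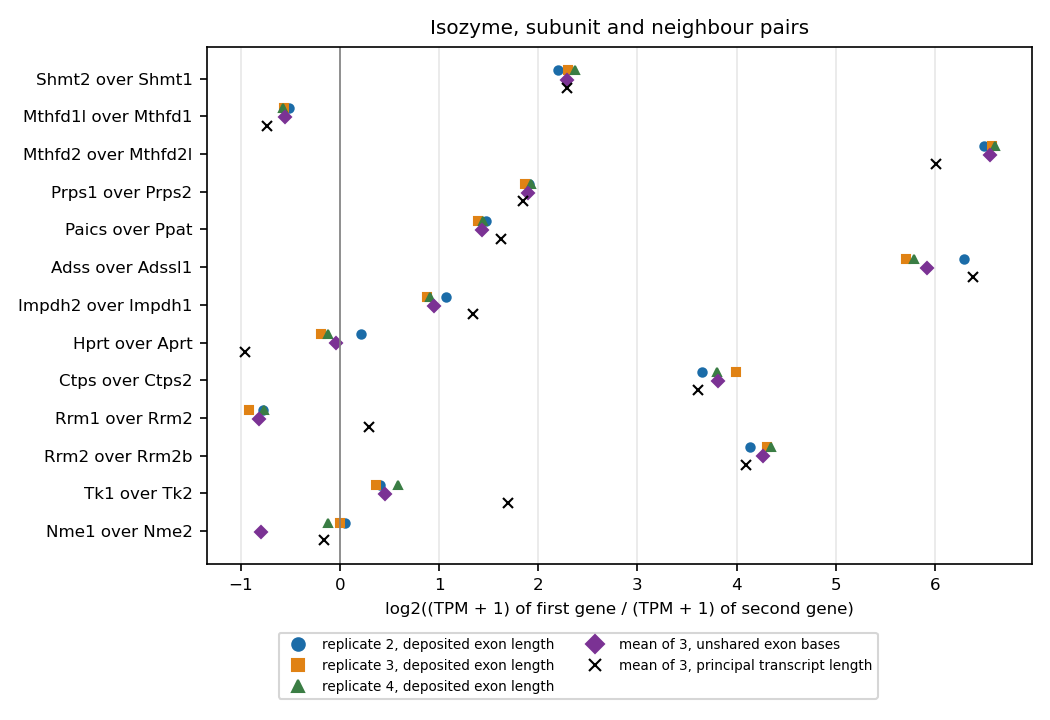
Log2 ratio of TPM + 1 of the first over the second gene in 13 pairs; circles, squares and triangles are replicates 2, 3 and 4 on annotated exon length, purple diamonds the mean over unshared exon bases, and crosses the mean over principal transcript length. Values right of 0 mean that the first gene was higher. On annotated exon length 9 of 13 means are positive, and Hprt over Aprt and Nme1 over Nme2 straddle 0. Rrm1 over Rrm2 changes side with the length used, and Hprt over Aprt moves to -0.96 over principal transcripts.

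The length that divides a count moved some levels far more than the spread between libraries did. Principal transcript length here took only the bases within the annotated exons over which fragments were counted. That kept 4464 of 8294 bases for Mtr and 2945 of 5905 for Slc25a32, so their places relative to Tyms depend on this choice. Annotated exon bases of Tk1 total 5198, against 1440 in its principal transcript, and over that transcript its level was 54.2 ± 4.22 TPM (SD, n = 3) instead of 22.4 ± 1.72. Rrm1 has 11012 annotated exon bases against 3997 in the principal transcript, and stood at 174 ± 8.29 TPM on that length instead of 94.2 ± 4.41. Tyms (37.3 ± 3.11 TPM), Mtr (41.2 ± 1.34), Slc25a32 (50.2 ± 3.74) and Dck (51.5 ± 3.68) then had lower means than Tk1. Atic moved to 423 ± 10.1 TPM, against 408 ± 15.9 for Gart, 399.8 ± 24.6 for Paics and 302 ± 22.8 for Prps1 on that length. Its range over the libraries overlapped those of Gart and Paics. Dhodh moved to 74.1 ± 4.24 and Psph to 80.2 ± 2.16. Tk1, Rrm1, Atic, Dhodh and Psph were the 5 members whose level was more than 1.5 times as high on that length; the median ratio was 0.848 over the members, against 0.869 over the 7743 protein-coding genes with a mean of 10 TPM or more. All fragments of a gene were kept in both versions, so genes with fragments in other exons may be overstated relative to others on the principal length. TPM was also scaled anew to the same sum. That scaling alone took Hprt, with 1289 bases in both versions, to 0.671 of its level. Hprt over Aprt became -0.96 ± 0.22 and Tk1 over Tk2 1.70 ± 0.12 over principal transcripts.

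**Figure D3:**
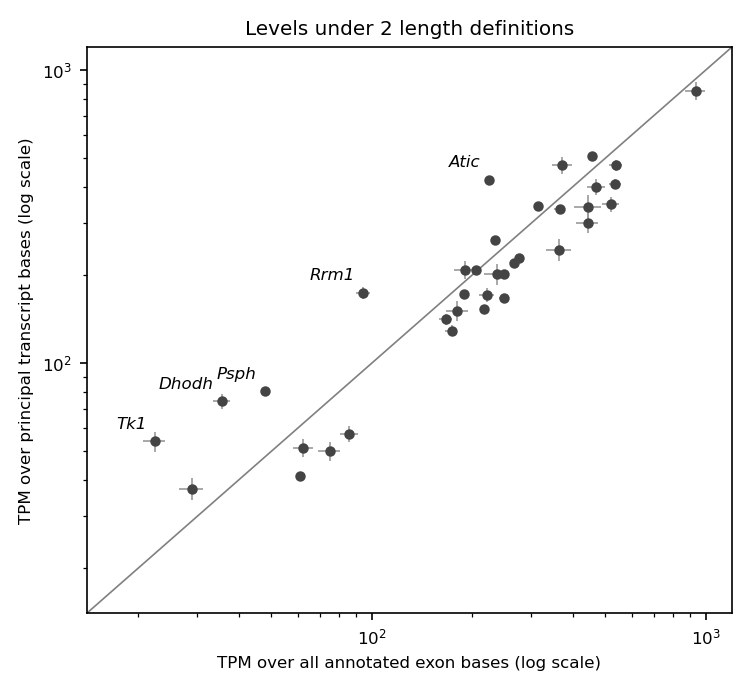
Mean level of each member over all annotated exon bases (x axis, TPM, log scale) against its mean level over the principal transcript (y axis, TPM, log scale); bars are the SD of 3 libraries and the grey line marks equal values. The 5 labelled genes lie above the line by more than 1.5 times, Tk1 the most, at 54.2 TPM on the y axis.

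Between libraries the members differed little. A chi-square test of equal rates called 0 of 36 at an adjusted p under 0.05 with a highest-to-lowest ratio of 2 or more, against 11.0% of 13688 genes tested and 0.129% of the 7743 protein-coding genes with a mean of 10 TPM or more. On the adjusted p alone 34 of 36 passed, as they did unadjusted, against 70.5% of all genes tested (72.8% unadjusted) and 81.7% of those at 10 TPM or more. The test compares these libraries, not conditions, and covers counting error only. The highest-to-lowest ratio ran from 1.025 for Ctps to 1.22 for Cad, with a median of 1.105 over the members, against 1.19 over all genes tested and 1.125 over those at 10 TPM or more. Ctps (adjusted chi-square p = 0.203) and Mtr (0.0858) did not pass. Cad (2.914e-279) had the largest ratio, lowest in replicate 2 and highest in replicate 4. Impdh1 (4.432e-42) and Aprt (6.574e-24) followed with ratios of 1.21 and 1.185, both lowest in replicate 2 and highest in replicate 3.

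These small differences moved with the base composition of the transcripts. The deviation of each member from its mean log2 CPM over the libraries (counts scaled for effective library size) correlated with the GC content of its principal transcript with Pearson's r of -0.86, 0.46 and 0.78 in replicates 2, 3 and 4 (Spearman's rho -0.88, 0.51 and 0.80, n = 36 genes). The points share their libraries, and genes are not independent replicates. The deviations of a gene cancel over the libraries, so a fall with GC in replicate 2 requires a net rise over replicates 3 and 4. Over the 7743 genes at 10 TPM or more the same r was -0.60, 0.39 and 0.45. GC-rich Impdh1 (58.9% GC), Aprt (58.5%) and Dctpp1 (58.0%) were low in replicate 2, and GC-poor Hprt (40.1%), Adss (42.4%) and Gmps (39.0%) were high there. Not every member followed. GC-poor Slc25a32 (41.2%) deviated by 0.062 in replicate 2 and 0.065 in replicate 3, and GC-rich Tk1 (55.5%) by 0.046 in replicate 2. GC was taken over whole principal transcripts, and only 2945 of the 5905 bases of Slc25a32 lay in counted exons. Whether that mismatch bears on its deviations was not tested. After the median of 20 GC bins was subtracted in each library, the median log2 range over libraries was 0.084 instead of 0.144, and it was smaller in 28 of 36 members. For genes at 10 TPM or more it was 0.119 instead of 0.168, and smaller in 5404 of 7743. The bin medians came from these same libraries, so some narrowing is built into the adjustment. The range of Impdh1 became 0.094 instead of 0.28, that of Cad 0.145 instead of 0.287, and Tk1 had the largest range after adjustment, 0.277 instead of 0.165.

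**Figure D4:**
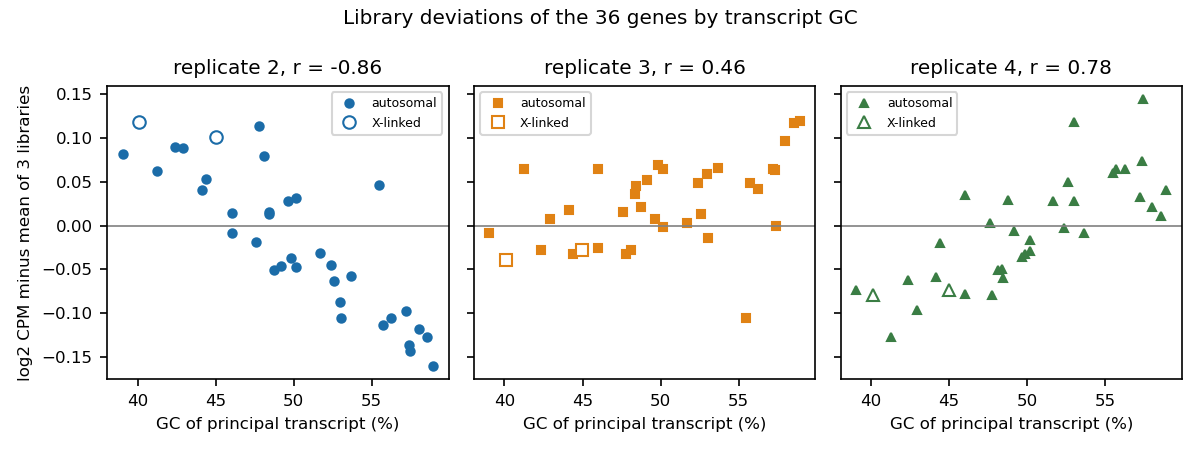
Deviation of each of the 36 genes from its mean log2 CPM over the libraries (y axis) against the GC content of its principal transcript in percent (x axis), 1 panel for each of replicates 2, 3 and 4; open symbols are the X-linked members. In replicate 2 the values fall with GC (r = -0.86), and in replicates 3 and 4 they climb (r = 0.46 and 0.78).

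Prps1 and Hprt are X-linked, and both were highest in replicate 2, the library with 126 TPM of Xist and 0.126 TPM of Ddx3y. Replicate 2 minus the mean of the other libraries was 0.15 log2 CPM for Prps1 and 0.18 for Hprt, and 0.15 and 0.23 for the X-linked paralogs Prps2 and Ctps2. The median was 0.059 over 220 X-linked genes at 10 TPM or more and -0.020 over 7513 autosomal ones, with 5th to 95th percentiles of -0.15 to 0.35 and -0.26 to 0.24. After the GC adjustment the differences were 0.072 for Prps1, -0.046 for Hprt, -0.012 for Prps2 and 0.12 for Ctps2, with medians of 0.006 over the X-linked and 0.000 over the autosomal genes. The transcripts of both are GC-poor, at 44.99% and 40.1%, against a median of 50.6% for the autosomal genes; the part of X-linkage in these differences was not tested.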

How the data were processed

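The deposited files hold raw counts of fragments for each gene, made by the authors, with merged exon lengths and coordinates. Per the file headers, paired-end fragments with both ends aligned were counted on the reverse strand with featureCounts 1.4.6-p4 over GENCODE M13 exons. The build is mm10 per the labels. STAR is named in the headers' alignment file names, with version, settings and read length not given in the sources used here. By default the counter leaves out fragments with several alignments and those that overlap more than 1 gene. The assay label names total RNA, whereas the linked library protocol is named for polyadenylated RNA, and the linked differentiation protocol for CD4 T cells.

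The members and lists were chosen with earlier results of these data known. Companion genes were named if in 1 of the 13 pairs or among the highest 2 or lowest 2 of their list, except 1 gene that is not reported here; pseudogenes, overlapping genes and the sex-linked genes were named after their values were seen. Symbols came from GENCODE M21, which matched 50376 of 50600 identifiers; the companion name Pnp was not matched. TPM was computed here from the counts and deposited lengths, and coordinates are 1-based. Rates in the libraries were set against each other by chi-square over 13688 genes with 30 or more fragments, on TMM sizes (edgeR 4.0.16, R 4.3.3), with Benjamini-Hochberg adjustment over all of them; a lowest value of 0 was replaced by 3 fragments. This step was tested on simulated data. No pair of libraries agreed within sampling noise (mean chi-square per gene 17.2 to 26.7, against 1 by sampling alone), so all 3 were counted; the common biological coefficient of variation was 11.1%. Pairs used a pseudocount of 1 TPM. Size factors of DESeq2 1.42.0 were an alternative. Other steps ran in Python 3.11.15 with scipy 1.17.1, pandas 2.3.3, numpy 2.4.6 and matplotlib 3.10.9. Sequences are from RefSeq GRCm38.p6 (promoters, 33 of 36 matched) and GENCODE M21. Intervals and floors cover counting error only.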

Additional observations from a re-analysis of the deposited data

How the results depend on the processing

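All 36 members reached the detection level under every alternative run: 10 TPM, a TPM sum without ribosomal protein and mitochondrial genes, unshared exon bases, length-scaled CPM, principal transcript length, thinned counts and each library left out. None was called between libraries with DESeq2 size factors, library totals, no count minimum, a ratio of 1.5, thinned counts or each library left out. Of all genes tested, 3.97% to 16.1% were called there. In the main setting 0.129% of protein-coding genes at 10 TPM or more were called. With a largest member ratio of 1.22 and at least 1483 fragments for a member in each library, these alternatives could hardly have called one. Of 91 pair values under alternatives, 87 kept their sign. For the 11 pairs with a shared sign in all libraries, another pseudocount, another TPM sum or a library left out could not reverse it. The count therefore says little about these pairs. Nme1 over Nme2 kept its sign over unshared exon bases but moved to -0.80. Hprt over Aprt ran from -0.16 to 0.044 with each library left out (0.011 without replicate 4), and Nme1 over Nme2 from -0.056 to 0.027, against -0.034 and -0.021 over all libraries. Rrm1 over Rrm2 was 0.30 over principal transcript length, an alternative chosen after seeing the data, as was the GC adjustment; the deposited exon length of Rrm1 is 11012 bases, against 3997 in that transcript. With 3 libraries no sign-flip test could pass 0.05. No paired analysis was possible because the libraries form 1 group. At these depths 34 of 36 members differed between libraries by more than counting error, against 81.7% of protein-coding genes at 10 TPM or more.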
